A study of Mus musculus with 9 samples.

Results

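The genes described here are 5 matrix metalloproteinases (Mmp2, Mmp9, Mmp14, Mmp15 and Mmp19), the 4 tissue inhibitors of metalloproteinases (Timp1, Timp2, Timp3 and Timp4) and the related membrane protease Adam12. They were chosen by symbol, each symbol matched 1 Ensembl identifier, and together they are 10 of the 47529 genes listed in at least 1 of the count files. RNA was sequenced from GAS, the gastrocnemius muscle of female C57BL/6 mice aged 8 to 12 weeks (3 biological replicates), and from primary muscle cells of C57BL/6 mice grown on Matrigel. Proliferating myoblasts (MB, n = 2) were kept in growth medium with 20% FBS, 10% horse serum and 10 ng/ml basic FGF and received PBS as the vehicle. Lactate-treated MB (n = 2) received 10 mM sodium-L-lactate overnight in the same medium, and myotubes (MT, n = 2) were MB held for 3 days in differentiation medium with 2% horse serum. MT and MB therefore differed in serum and FGF as well as in cell state. Sources used here do not say whether replicate cultures came from separate animals, so p-values measure the spread between these libraries.

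MMPs are zinc-dependent proteases that cut collagens, laminins, proteoglycans and other proteins outside the cell. Most are made as inactive precursors. TIMPs bind the active site of MMPs and block it, and they differ in their targets and in where they act, TIMP3 being held in the matrix. In skeletal muscle, these proteins take part in the passage of satellite cells through the basal lamina, in the fusion of myoblasts and in the turnover of matrix after injury. RNA levels do not show how much of a precursor is activated or of an inhibitor secreted.

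Between 5198247 and 10839516 counts per library were available for the cultured cells and between 19307793 and 19941574 for GAS. Levels are given as TMM-normalized counts scaled to library size (CPM), or per kilobase of exon (RPKM) where genes are compared with each other. A count of 3 corresponded to 0.223 to 0.533 CPM in cultures and to at most 0.156 CPM in GAS, a limit for counting error only. Cultures and GAS were prepared by different protocols (Smart-seq2 and poly(A) selection) and normalized separately, so GAS was not tested against cells. MB replicate 1 and lactate-treated replicate 1 stood apart from the other cultures in holding 9.20% and 13.8% of their counts in the ribosomal RNA gene CT010467.1, against 0.131 to 0.575%. MT replicate 1 stood apart in its 28599 genes with counts, against 15548 to 17965 in the other cultures.

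MT had more RNA of Mmp19 and Timp3 than MB, by 12.9-fold and 15.4-fold. These were the only genes of this group that passed the test, an adjusted p under 0.05 and a log2FC beyond 0.5 in edgeR's quasi-likelihood test. Thus 2 of the 8 genes with enough counts rose and 0 fell. Over all 12921 genes tested, 17.9% passed, 11.0% higher and 6.86% lower. The log2FC was positive for 7 of the 8, with a median of 1.03. Over all genes tested it was positive for 6761 of 12921, with a median of 0.07. Mmp9 and Timp4 had too few counts to be tested. Both libraries of MT lay above both of MB for Mmp19, Timp3 and Adam12, and such separation upwards was seen in 33.1% of all genes tested. It was seen downwards in 29.2% of all genes and in 0 of the 8. In bulk RNA, more cells of a type and more RNA per cell cannot be told apart.

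**Figure D1:**
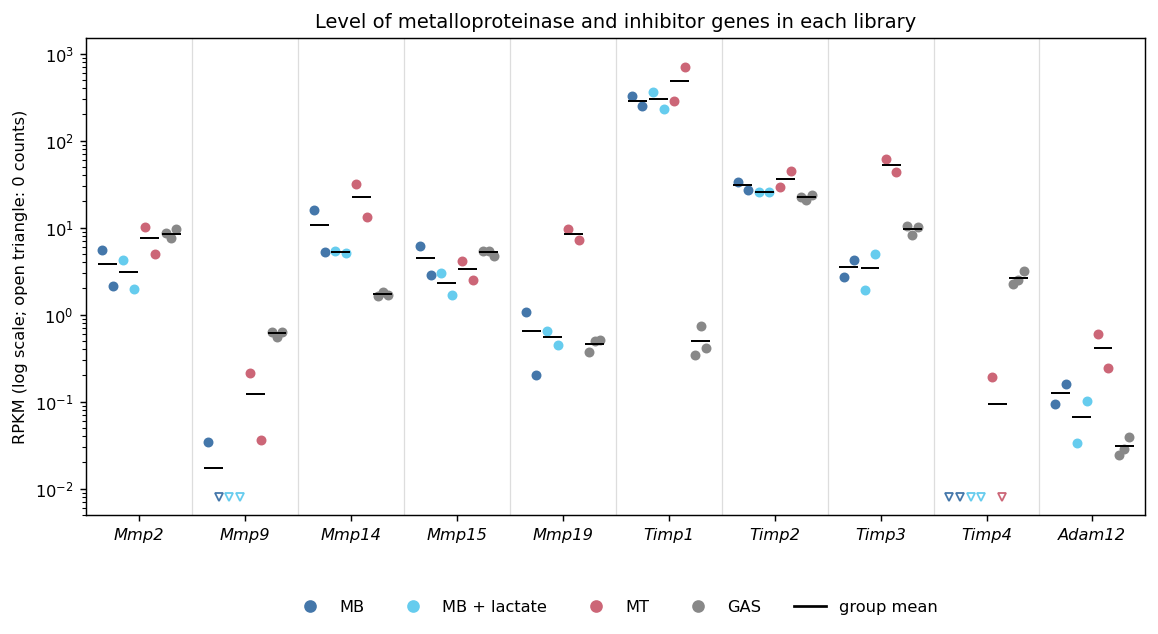
Level of each gene in each library, in RPKM on a log axis, with open triangles for 0 counts and black bars for group means (2 libraries each for MB, lactate-treated MB and MT, 3 for GAS). Mmp19 and Timp3 lay higher in both MT libraries than in all MB libraries, and Timp1 was at 247 to 323 RPKM in MB against 0.343 to 0.741 in GAS.

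Mmp19, on chromosome 10 (mm10, 128790910 to 128800824, plus strand; ENSMUSG00000025355), encodes a secreted MMP that cleaves basement membrane proteins. It had 3.80 and 0.723 CPM in MB, 34.5 and 25.3 CPM in MT, 2.28 and 1.60 CPM in lactate-treated MB and 1.32 to 1.82 CPM in GAS. Both MT libraries were thus above all 4 MB libraries, treated or not. The log2FC of MT over MB was 3.69 ± 0.79 (SE, 95% interval 1.95 to 5.43, adjusted p = 0.00972). Its size rested on the MB libraries, with 31 and 6 counts. It was 5.31 without MB replicate 1 and 2.82 without MB replicate 2, and with at least 10 counts required in every library the gene was not tested. Exons of Mmp19 share 789 bases, 22.3% of its exonic length, with Tmem198b on the opposite strand, and the strand setting of the counting is not stated. Tmem198b had 270 and 189 counts in MB and 295 and 238 in MT.

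Mmp2 and Mmp9 are the gelatinases, which degrade denatured collagen and the type IV collagen of basement membranes. Mmp2 (chromosome 8, 92827291 to 92853420, plus strand) had 18.5 and 7.23 CPM in MB, 34.5 and 16.9 in MT, 14.2 and 6.58 in lactate-treated MB and 25.4 to 32.2 in GAS. The lower MT library was below the higher MB library, and the log2FC of 0.99 ± 0.64 (SE) did not pass (adjusted p = 0.314). Mmp9 (chromosome 2, 164940780 to 164955850, plus strand), a gelatinase of neutrophils and macrophages, had 10 and 1 counts in MT, 1 and 0 in MB and 0 in both lactate-treated libraries. It was found at 39 to 44 counts in GAS, or 2.15 CPM ± 0.149 (SD, n = 3). All cultured libraries except MT replicate 1 were at or below the limit of 3 counts.

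Mmp14 and Mmp15 encode membrane-type MMPs, and the product of Mmp14, MT1-MMP, activates the precursor of MMP2 together with TIMP2. Mmp14 (chromosome 14, 54431612 to 54445364, plus strand) had 95.7 and 31.6 CPM in MB, 190 and 79.1 in MT, and 9.70 to 10.9 in GAS. The groups overlapped, and the log2FC of 1.07 ± 0.64 (SE) did not pass (adjusted p = 0.27). The size of the log2FC of Mmp14 and Mmp2 rested on single libraries. Without MB replicate 1, one of the libraries rich in ribosomal RNA, it was 2.06 for Mmp14 and 1.80 for Mmp2, and without MB replicate 2 it was 0.34 and 0.33. Without MT replicate 1 it was 0.20 and 0.29, and without MT replicate 2 it was 1.44 and 1.29. Mmp15 (chromosome 8, 95352268 to 95375080, plus strand) had 33.3 and 15.3 CPM in MB and 22.3 and 13.4 in MT. Its log2FC of -0.45 ± 0.59 (SE, adjusted p = 0.637) was the only negative one of the group, and it turned to 0.19 without MB replicate 1.

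The spread between replicates was wide for several of these genes, proteases and inhibitors alike. Mmp2, Mmp14, Mmp15 and Mmp19 were each higher in replicate 1 than in replicate 2 in MB, in lactate-treated MB and in MT. In MB the ratios of replicate 1 to replicate 2 were 2.56 for Mmp2, 3.03 for Mmp14, 2.18 for Mmp15 and 5.25 for Mmp19. Smaller ratios were seen for Mmp14 in lactate-treated MB (1.07) and Mmp19 in MT (1.36). Adam12 went the other way in MB (0.581) and lactate-treated MB (0.329), and was at 2.46 in MT. Among the inhibitors, Timp1 was at 0.407 in MT and Timp3 at 0.392 in lactate-treated MB. Over the 12921 genes tested, 49.7% were higher in replicate 1 in MB, 45.6% in lactate-treated MB and 42.0% in MT. The mean GC content of counted RNA was 51.9% in MB replicate 1 and 51.8% in lactate-treated replicate 1, and between 49.0 and 49.6% in the other cultures. The 2 MT replicates were both at 49.6%. The longest transcripts of Mmp2, Mmp14, Mmp15 and Mmp19 have 55.3, 54.3, 59.6 and 49.0% GC, and those of Timp3 and Adam12 have 46.8 and 49.8%. The part of base composition in these ratios was not tested.

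Timp3 (chromosome 10, 86300372 to 86349506, plus strand; ENSMUSG00000020044) encodes the matrix-bound inhibitor, which also blocks ADAM17 and ADAMTS proteases. It had 22.1 and 35.0 CPM in MB, 15.8 and 40.4 in lactate-treated MB, 502 and 359 in MT and 67.7 to 84.8 in GAS. Both MT libraries were above all 4 MB libraries, treated or not. The log2FC of MT over MB was 3.95 ± 0.52 (SE, 95% interval 2.79 to 5.11, adjusted p = 0.000826), and it remained between 3.59 and 4.13 when any 1 library was left out. The gene lies inside Syn3, which is on the other strand and overlaps 1733 bases, or 21.3%, of its exons. Syn3 had 59 and 3 counts in MT and 0 and 1 in MB, compared with 6747 and 2825 for Timp3 in MT.

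Timp1 (chromosome X, 20870166 to 20874735, plus strand) encodes a secreted inhibitor that also acts as a growth factor. It was at 287 and 220 CPM in MB, 323 and 207 in lactate-treated MB, 251 and 617 in MT, and 0.305 to 0.658 in GAS. MT replicate 1 was inside the range of MB and MT replicate 2 above it. The log2FC of 0.73 ± 0.53 (SE) did not pass (adjusted p = 0.366), and it was -0.12 without MT replicate 2. In GAS only 6 to 13 counts were found per library, and its level there is imprecise. By RPKM, Timp1 ranked 162 in MB and 56 in MT among 21519 protein-coding genes, and 10406 among 21173 in GAS.

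Timp2 (chromosome 11, 118301069 to 118355740, minus strand), the inhibitor that also takes part in the activation of MMP2, was the most even member. It had 132 and 107 CPM in MB, 99.1 and 100.3 in lactate-treated MB, 113 and 173 in MT and 80.8 to 91.9 in GAS. Its log2FC of MT over MB was 0.23 (95% interval -0.72 to 1.19, adjusted p = 0.749). Timp4 (chromosome 6, 115241892 to 115252205, minus strand), an inhibitor known from heart and other muscle, had 0 counts in both MB libraries, both lactate-treated libraries and MT replicate 2. MT replicate 1 had 15 counts. In GAS it had 261, 292 and 357 counts, or 15.5 CPM ± 2.72 (SD, n = 3). For scale, 3854 protein-coding genes had counts in MT replicate 1 and in no other culture, with a median of 3.23 counts per kilobase, and Timp4 and Mmp9 had 2.55 and 2.83 counts per kilobase there.

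The promoters of 3 inhibitors with different patterns are shown: Timp1 with its high level in cultures, Timp3 with its rise in MT, and Timp4 with counts in GAS. Each is the stretch of 200 bases just before the annotated gene start, read 5′ to 3′ on the gene's strand from the RefSeq promoter table (GRCm38), with CpG sites in capitals. They lie at chrX:20869966-20870165 (plus strand), chr10:86300172-86300371 (plus strand, ending 40 bases before the RefSeq start) and chr6:115252206-115252405 (minus strand).
Timp1: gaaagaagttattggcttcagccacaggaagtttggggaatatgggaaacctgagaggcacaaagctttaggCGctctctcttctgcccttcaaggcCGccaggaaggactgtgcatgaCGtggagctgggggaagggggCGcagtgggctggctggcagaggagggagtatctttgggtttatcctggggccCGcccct
Timp3: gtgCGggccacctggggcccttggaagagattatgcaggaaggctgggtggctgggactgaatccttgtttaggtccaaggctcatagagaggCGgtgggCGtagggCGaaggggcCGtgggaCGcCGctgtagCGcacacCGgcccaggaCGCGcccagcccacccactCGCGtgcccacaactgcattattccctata
Timp4: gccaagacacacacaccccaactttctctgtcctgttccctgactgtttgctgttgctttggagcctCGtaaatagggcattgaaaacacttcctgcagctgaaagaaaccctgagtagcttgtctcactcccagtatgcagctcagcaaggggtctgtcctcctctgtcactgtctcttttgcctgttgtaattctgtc
The printed stretch of Timp3 holds 13 CpG sites, that of Timp1 holds 5 and that of Timp4 holds 1. In the full windows of 300 bases in that table, which covers 6 of these 10 genes, CpG sites numbered 24 for Timp3, 25 for Timp2, 22 for Mmp15, 10 for Mmp14, 8 for Timp1 and 2 for Timp4. Over all 32851 promoters the median was 7, with quartiles at 3 and 20. The AP-1 motif TGANTCA, searched on both strands, was in none of the 6 windows and in 7.81% of all promoters. The E-box CAGCTG, the kind bound by MyoD and myogenin, was in the windows of Timp2 and Timp4 and in 16.3% of all, and the GC box GGGCGG, searched on both strands, was in those of Mmp14, Mmp15, Timp1, Timp2 and Timp3 and in 35.7% of all. These matches are letters in a window and not shown to be bound.

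Adam12 (chromosome 7, 133883199 to 134232146, minus strand) encodes meltrin alpha, a membrane protease known from the fusion of myoblasts. It was low in every library, with 8 and 14 counts in MB, 84 and 20 in MT, 2 and 6 in lactate-treated MB and 5 to 8 in GAS. In CPM, MT was at 6.25 and 2.54 and MB at 0.98 and 1.69, without overlap. The log2FC of 1.77 (95% interval -0.20 to 3.74) did not pass (adjusted p = 0.196).

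**Figure D2:**
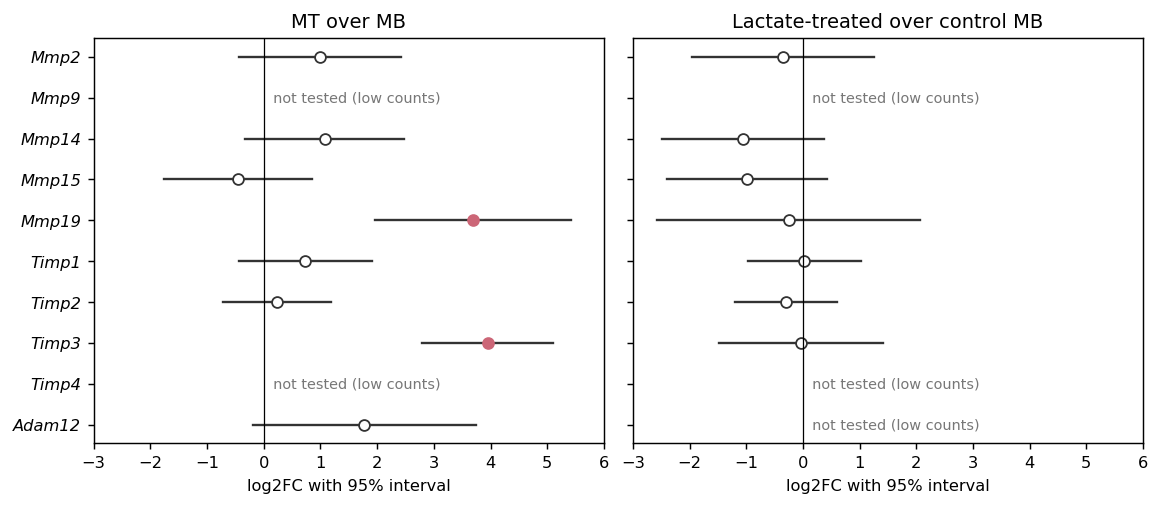
log2FC of each gene in MT over MB (left) and in lactate-treated over control MB (right), with 95% intervals, from 2 libraries a group; filled points passed the test. Mmp19 (3.69) and Timp3 (3.95) are the only filled points, both on the left, and every interval on the right includes 0.

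None of these genes passed the test for lactate, which was given to ask whether it promotes myogenic differentiation, and 0 of 7 tested were called. The background was 0% of 11804 genes tested, with 5 genes and 0 of this group at an unadjusted p under 0.05. DESeq2 also called 0 genes, with 3 genes at an unadjusted p under 0.05. These counts are far below the 0.05 share of genes that a test without any effect would give, so both tests were conservative here. Mmp19 and Timp3, which were higher in MT, had a log2FC of -0.25 (95% interval -2.57 to 2.06) and -0.041 (-1.49 to 1.41) under lactate. The same MB libraries served as control in both comparisons, so these values are not independent.

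Mmp14 had 32.3 and 30.2 CPM in lactate-treated MB and 95.7 and 31.6 CPM in MB, so the higher treated library was just above the lower MB library. Its log2FC was -1.06 (95% interval -2.49 to 0.38, adjusted p = 1), and it was 0.031 without MB replicate 1. Timp2, at 99.1 and 100.3 CPM, was below both MB libraries, with a log2FC of -0.29 (-1.19 to 0.61). Such separation downwards was seen in 7.96% of all genes tested, and upwards in 3.79%, with 0 of the 7 genes separated upwards. These shares used the TMM factors of the 4 libraries fitted, with which Mmp14 also was separated downwards, and its separation therefore depends on the normalization. Mmp15 had 16.2 and 9.07 CPM, with a log2FC of -0.99 (-2.39 to 0.42). The values were -0.35 (-1.95 to 1.25) for Mmp2 and 0.024 (-0.97 to 1.02) for Timp1. The median over the 7 genes was -0.29, compared with -0.0034 over all genes tested. At this depth and with 2 libraries a group, the intervals include changes of similar size in either direction for Mmp2, Mmp19, Timp1 and Timp3.

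Per length, Timp1 was the most abundant of the 10 in every cultured group and Timp2 in GAS. In MB, Timp1 was at 285 RPKM ± 53.4 (SD, n = 2), above Timp2 at 30.6 ± 4.60, which was above Mmp14 at 10.7 ± 7.61, in both libraries. The ranges of Mmp14, Mmp15 (4.51), Mmp2 (3.82) and Timp3 (3.50 RPKM) overlapped as neighbours across libraries, and Mmp19 (0.640) and Adam12 (0.126) lay below. Within each MB library, Mmp14 was above Mmp15 and Mmp15 above Mmp2. In MT the order was Timp1 (489 RPKM ± 292), Timp3 (52.9 ± 12.4), Timp2 (36.7 ± 10.8) and Mmp14 (22.6 ± 13.2), and the last 3 overlapped with their neighbours. Mmp19 (8.46) and Mmp2 (7.62) overlapped too, above Mmp15 (3.31) and Adam12 (0.416). In lactate-treated MB the order began with Timp1 (298), Timp2 (25.6) and Mmp14 (5.25 RPKM). Timp3, Mmp2 and Mmp15 followed, and their ranges overlapped as neighbours across libraries, with Mmp2 above Mmp15 within each library.

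In GAS, 6 of the 10 genes were over 1 RPKM. Timp2 was at 22.2 RPKM ± 1.42 (SD, n = 3), above Timp3 (9.66 ± 1.16) and Mmp2 (8.55 ± 1.01). The ranges of Timp3 and Mmp2 overlapped across libraries, with Timp3 above Mmp2 within each library. Mmp15 (5.18), Timp4 (2.63) and Mmp14 (1.71 RPKM) followed, each above the next in all 3 libraries. Mmp9 (0.607), Timp1 (0.498) and Mmp19 (0.463) overlapped as neighbours, and Adam12 was at 0.0307 RPKM. Levels per length depend on the length used, and with the longest transcript in place of all exons Timp3 was at 16.7 RPKM and Mmp14 at 3.14 RPKM in GAS. GAS holds many cell types, and the summed level of 7 endothelial markers was 165 to 184 CPM, of 8 macrophage markers 68.8 to 83.5, of 5 smooth muscle and pericyte markers 521 to 599, of 8 fibroblast markers 654 to 755, of 4 adipocyte markers 19.9 to 41.4 and of 5 neutrophil markers 0.623 to 1.42 CPM. The 5 myofiber markers summed to 66654 to 74021 CPM, and the 3 myoblast markers to 12.7 to 16.0 CPM. Which cells held the RNA of the MMPs and TIMPs was not tested.

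**Figure D3:**
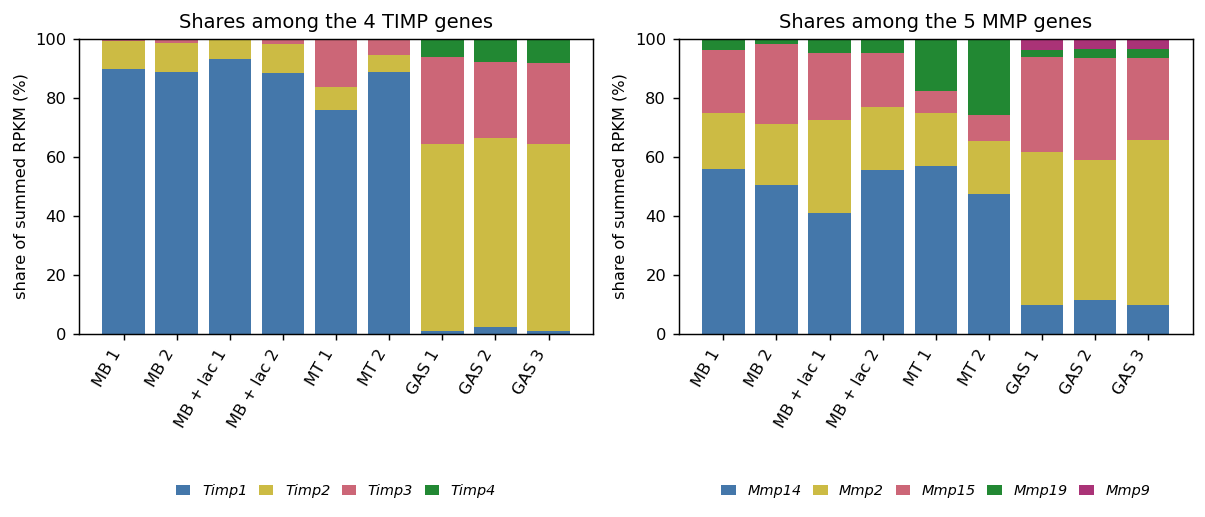
Share of each gene in the summed RPKM of the 4 TIMP genes (left) and the 5 MMP genes (right), one stacked bar per library, in percent. Timp1 takes 75.7 to 93.0% of the TIMP sum in cultures and 0.971 to 2.29% in GAS, and Mmp19 takes 17.4 and 25.6% of the MMP sum in MT.

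The composition is given as shares of the summed RPKM, within the TIMP genes and within the MMP genes of this group. Timp1 made up 89.8 and 88.7% of the TIMP sum in MB, 93.0 and 88.4% in lactate-treated MB and 75.7 and 88.7% in MT, and Timp3 made up 0.753 and 1.54% in MB and 16.5 and 5.63% in MT. In GAS, Timp2 made up 63.1 to 64.2% and Timp3 25.7 to 29.5%. Of the MMP sum, Mmp14 took 40.8 to 56.7% in cultures, and Mmp2 took 47.5 to 55.8% and Mmp15 27.8 to 34.3% in GAS. Mmp19 took 3.73 and 1.95% in MB and 17.4 and 25.6% in MT. The TIMP sum divided by the MMP sum was 12.5 and 26.6 in MB, 29.4 and 28.8 in lactate-treated MB, 6.65 and 28.0 in MT and 2.04 to 2.18 in GAS. The values of MT reached on both sides of those of MB, so no difference of this ratio was seen between them. Other MMPs are left out of the MMP sum. Of the 6 tested, 3 rose in MT and 0 fell, so the shares and the ratio cover the listed genes only.

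Other proteases of these families and their regulators were examined by fixed lists. Of 18 other MMPs, 6 had enough counts and 3 rose in MT, with 0 falling and a median log2FC of 2.99, or 2.43 with Mmp10, at 3 counts or fewer in each MB library, set at the detection limit. All 3 had under 10 counts in each MB library and entered the test through their level in MT, and with at least 10 counts required in every library 2 of the list were tested and 0 rose. Mmp3 (stromelysin 1), which cleaves many matrix proteins and other MMP precursors, had 8 and 7 counts in MB and 143 and 167 in MT (log2FC 4.08 ± 0.74 SE, adjusted p = 0.00461, and 3.43 without MT replicate 2). Mmp13, a collagenase, had 6 and 7 counts in MB and 98 and 544 in MT, with a log2FC of 5.51 that was 3.09 without MT replicate 2 (adjusted p = 0.00514 with all libraries). Mmp10 (stromelysin 2) had 0 and 2 counts in MB and 60 and 10 in MT (adjusted p = 0.0383).

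Of 18 ADAMTS proteases, which cut proteoglycans and procollagens, 11 were tested, 7 rose and 0 fell, with a median log2FC of 3.65 (2.66 with Adamts9 and Adamts16 at the detection limit). Adamts9, Adamts12 and Adamts16 had under 10 counts in each MB library and entered through MT, and with at least 10 counts required in every library 8 were tested and 4 rose (Adamts1, Adamts2, Adamts5 and Adamts10). Adamts5 and Adamts1, aggrecanases that act on versican, went from 4.66 and 5.54 CPM in MB to 201 and 236 in MT and from 10.4 and 11.5 to 507 and 321, a log2FC of 5.42 (adjusted p = 0.000137) and 5.26 (adjusted p = 0.000227). Adamts2, a procollagen N-proteinase, and Adamts12 had 3.65 (adjusted p = 0.00539) and 4.16 (adjusted p = 0.0059), and that of Adamts2 was 2.80 without MT replicate 1 and 4.56 without MB replicate 1. Adamts10 had 1.74 (adjusted p = 0.0428), and Adamts9 had 1 and 0 counts in MB and 38 and 14 in MT (adjusted p = 0.0239). Adamts16 had no count in MB and 501 and 24 in MT, at least 55.3-fold higher against 3 counts per MB library, or at least 8.37-fold in MT replicate 2 alone. Of 10 other ADAMs, 7 were tested and 0 passed, with a median of 0.28. Adam9, the one with the highest level in GAS (92.3 CPM), had 0.20 ± 0.46 (SE, adjusted p = 0.81).

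Of 16 regulators, 13 were tested, 5 rose and 2 fell, with a median log2FC of 0.53. Those that rose were Reck, a membrane-anchored inhibitor of MMPs (2.72, adjusted p = 0.0382), Plat, the tissue plasminogen activator (3.73, adjusted p = 0.0015), the protease inhibitor Serpine2 (3.26, adjusted p = 0.00157), and the thrombospondins Thbs1 (2.61, adjusted p = 0.0195) and Thbs2 (7.27, adjusted p = 0.0069). Thbs2 had 33072 counts in MT replicate 1 and 653 in MT replicate 2, and its log2FC was 3.19 without the former. Plaur, the urokinase receptor, fell by 2.33 (adjusted p = 0.00541) and Cd44, a hyaluronan receptor that can dock MMPs at the membrane, fell by 1.66 (adjusted p = 0.0485) on the log2 scale. Bsg (basigin, an inducer of MMPs), the most abundant regulator in GAS at 576 CPM, had 0.70 ± 0.57 (SE, adjusted p = 0.431). Without MT replicate 1, counted for these lists after seeing the data, the tests no longer passed for Mmp10, Adamts9, Adamts10, Reck, Thbs1 and Cd44, so that 2 other MMPs, 5 ADAMTS genes and 3 regulators rose and 1 fell. Mmp10 and Adamts9 were also lost without either MB library, and Adamts10 without MB replicate 2 or MT replicate 2. Mmp10, Thbs1 and Cd44 did not pass with all 6 cultured libraries in one fit, Mmp10, Adamts9 and Cd44 not without the filter on low counts, and Cd44 not with RLE size factors or with at least 10 counts in every library. For lactate, 0 genes of all these lists passed.

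**Figure D4:**
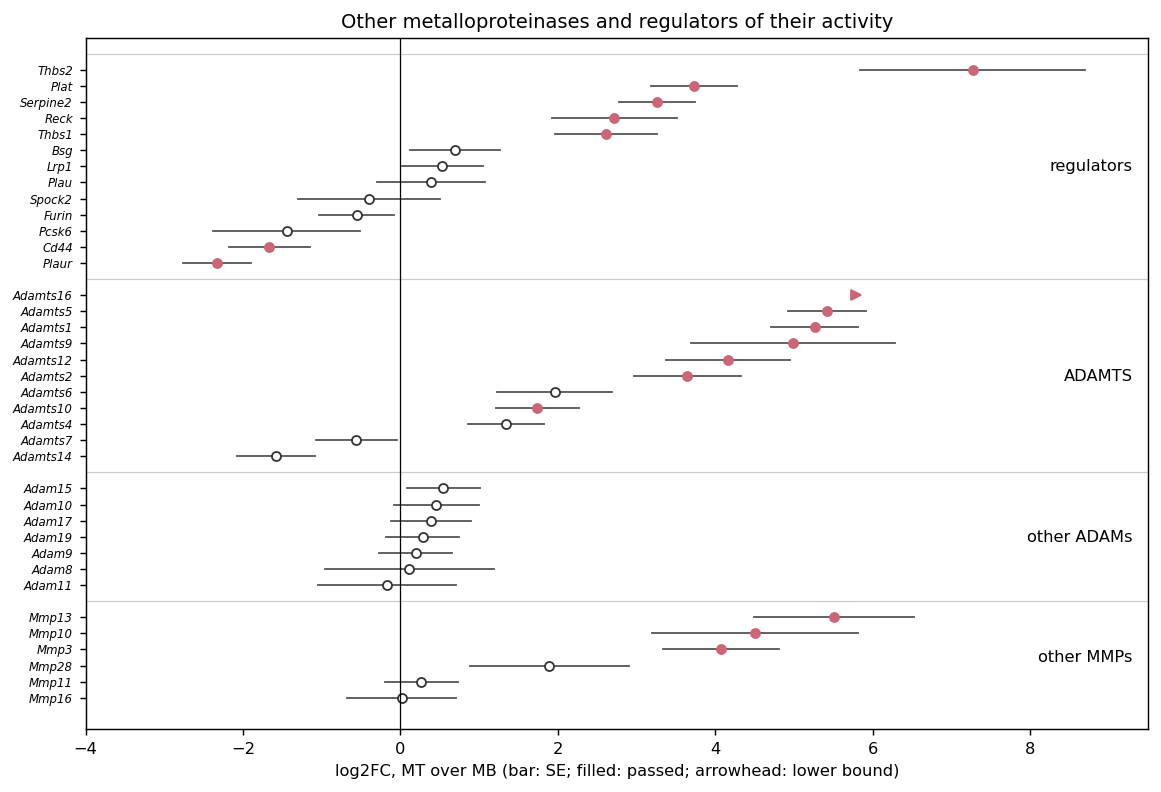
log2FC of MT over MB (2 libraries each) for the tested genes of the 4 lists, with SE bars; filled points passed the test and the arrowhead is the lower bound for Adamts16, which had no count in MB. The 15 filled symbols above 0 are in the lists of other MMPs (3), ADAMTS (7) and regulators (5), and the 2 below 0 are Cd44 and Plaur.

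Markers of other cell types were compared between MT and MB. The 8 fibroblast markers summed to 475 and 236 CPM in MB, 170 and 277 in lactate-treated MB, and 24067 and 14567 in MT. Of the 5 tested, 4 rose (Col1a1, Col1a2, Col3a1 and Dcn), and Col1a2 did not pass without MT replicate 1, with RLE size factors or with all 6 cultured libraries in one fit. Dcn had 0 and 2 counts in MB and 5484 and 867 in MT. Pdgfra, a defining marker of fibroblasts, was low in MB at 13 and 12 counts and had a log2FC of 1.46 ± 0.86 (SE, adjusted p = 0.27). Lum and Dpt were at 0 in both MB libraries. Of the 8 fibroblast markers, 5 and 4 were above 3 counts in MB replicates 1 and 2, and 7 and 8 in MT replicates 1 and 2. Endothelial markers summed to 21.5 CPM in MT replicate 1 and to 0.241 to 1.41 CPM in the other cultures, and macrophage markers to 20.2 and 4.07 CPM in MT and 1.08 and 1.72 in MB. Smooth muscle and pericyte markers summed to 23.6 and 12.6 CPM in MT and 2.94 and 4.46 in MB, with 1 of 2 tested higher (Abcc9), while neutrophil and adipocyte markers were at 0 in all cultures but MT replicate 1. The part of such cells in the rise of Mmp19, Timp3 and the genes above was not tested.

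Muscle markers followed the labels. All 5 myotube markers rose in MT, among them the regulator Myog with a log2FC of 3.81 (adjusted p = 0.00276), and their sum was 10018 and 12239 CPM in MT against 168 and 83.6 in MB. Of the 3 myoblast markers, Pax7 fell by 4.11 on the log2 scale (adjusted p = 0.00224), and the sum was 1236 and 757 CPM in MB and 161 and 387 in MT.

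The genes most like Mmp19 and Timp3 were sought among 8647 protein-coding genes with a mean of at least 10 CPM over the 6 cultured libraries, by Pearson r of log2(CPM + 1). For Mmp19 these were Zfp36l1 (0.996), which encodes an RNA-binding protein, Rdh5 (0.996), a retinol dehydrogenase, and Lpin1 (0.995), a phosphatidate phosphatase. For Timp3 they were Tspyl1 (0.999), Pros1 (0.998), which encodes protein S, and Fstl1 (0.998), a secreted glycoprotein. With 2 high and 4 low libraries a high r is common, and 367 genes had an r above 0.95 to Mmp19 and 448 to Timp3. Between Mmp19 and Timp3 themselves r was 0.905. Rdh5 lies on chromosome 10 (128913593 to 128922888, minus strand), like Mmp19, and had 10.5 and 6.75 CPM in MB and 32.5 and 27.3 in MT.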

How the data were processed

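Libraries of GAS, MB, MT and lactate-treated MB were sequenced by the study. The authors trimmed the reads with Trim Galore 0.6.6, aligned them to mm10 with HISAT2 2.2.1 and counted them on genes with featureCounts of Subread 2.0.1. Each deposited file holds the raw counts of 1 library by Ensembl gene. The annotation release, the strand setting and the handling of multimapping reads are not given in the sources used here, so counts of overlapping genes may be split or lost.

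Names, positions and the length of merged exons came from GENCODE M21, which is on mm10 and in which 36345 of 38293 genes of the GAS files and 45143 of 46078 of the culture files were found. Both comparisons (MT over MB, and lactate-treated MB over MB given PBS) were made with edgeR 4.0.16 (R 4.3.3), using only the libraries compared, its filter on low counts, TMM normalization, the quasi-likelihood test and Benjamini-Hochberg adjustment over all genes tested, as the study names edgeR. A gene passed with an adjusted p under 0.05 and an absolute log2FC over 0.5. The study's nominal rule for lactate, p under 0.01 and an absolute log2FC over 0.5, gave 0 genes in the main fit. It gave 1 gene with DESeq2 or without the filter and 13 with the replicate block, none of this group. The study itself reported a small set of genes by this rule. The SE was derived from the F statistic. The code was tested on simulated data. CPM and RPKM were computed for GAS and cultures separately. Genes named are the 10 members, genes of the fixed lists that passed, the other 2 most abundant in GAS, 3 genes most like each member that passed, and overlapping genes. One gene of the regulator list is not reported here. Members and lists were chosen with earlier results of these data known. Alternatives were RLE size factors, DESeq2 1.42.0, no filter, at least 10 counts in every library, the replicate block, all 6 cultures in one fit, leaving out rRNA genes, and leaving out each library. Figures were drawn with matplotlib 3.10.9.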

Additional observations from a re-analysis of the deposited data

How the results depend on the processing

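Under the alternatives to the test of MT against MB, the log2FC of the 8 genes kept its direction and its side of the threshold in 88 of 94 cases, and under those to the test of lactate in 68 of 76. Requiring at least 10 counts in every library lowered the genes tested from 12921 to 10648, and those of this group from 8 to 6. It lowered the genes higher in MT from 1425 to 766 and those of this group from 2 to 1. Leaving out 1 library gave 962 to 4118 genes higher and 270 to 1570 lower, and 2 to 4 genes of this group higher. DESeq2 called 3021 genes against 2312. When 1 library was left out, the log2FC of MT over MB changed sign for Timp1 (-0.12 to 1.21, negative without MT replicate 2), Timp2 (-0.19 to 0.46, negative without MT replicate 2 and, at -0.048, without MB replicate 2) and Mmp15 (-1.05 to 0.19, positive without MB replicate 1). For lactate, leaving out MB replicate 1 gave 2 called genes, none of this group, and leaving out each other library gave 0. The log2FC under lactate changed sign for Mmp14 (-1.64 to 0.031), Mmp19 (-0.99 to 1.45) and Mmp2 (-0.95 to 0.58), each positive without MB replicate 1 and Mmp2 also without lactate-treated replicate 2 (0.076). It did so for Timp1 (-0.27 to 0.32) and Timp3 (-0.92 to 0.52), at -0.15 and 0.34 without MB replicate 2 and at -0.27 and 0.52 without lactate-treated replicate 1. With the longest transcript as gene length, the TIMP to MMP ratio was 20.6 in lactate-treated MB against 29.1 and 2.26 in GAS against 2.12, and Timp3 in GAS was at 16.7 RPKM against 9.66. The cause of these changes was not tested.

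Libraries with the same replicate number are not stated to be paired. Their deviations correlated at -0.117 between MT and MB and 0.712 between lactate-treated and control MB. With the replicate block, 2271 genes passed in MT against MB, 2 of this group. Of the genes named, Cd44 no longer passed (adjusted p = 0.0857). Under lactate 0 genes passed with the block, and 166 genes, 1 of this group, had an unadjusted p under 0.05. Without the block these were 5 genes and 0 of this group. With crossed numbers, chosen after seeing the data, 2059 genes passed, 2 of this group, and 2 other MMPs, 5 ADAMTS genes and 3 regulators were higher, against 3, 7 and 5. Depth limits Mmp9, Timp4 and Adam12 in cultures, at 0 to 14 counts in MB. Arms reduced to 1 library are assumed to vary like the other group.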
